A study of Mus musculus with 12 samples.

Results

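Ion channels of the muscle fibre membrane that are known to respond to nerve activity were examined in mouse tibialis anterior (TA) muscle that expressed the human long noncoding RNA *FRAIL1*. The set held 6 named genes, *Scn4a*, *Clcn1*, *Kcnj2*, *Kcnj11*, *Kcna7* and *Kcnn3*, of 27179 genes in the count table. The genes were chosen by name for their known roles, with earlier results of these data also known, and all 6 passed the filter on low counts that left 15502 genes for testing. The muscles came from 6 young adult male wild-type C57BL/6N mice. In each mouse 1 TA muscle received 10 µg of empty pcDNA3 plasmid (Control) and the muscle of the other leg received 10 µg of a plasmid carrying full-length human *FRAIL1* (FRAIL1), and both were harvested after 7 days. Both groups therefore shared the injection and the electroporation that moved the plasmid into the fibres. *FRAIL1* was driven by a cytomegalovirus promoter, uptake of plasmid varied among fibres, and RNA was taken from the whole muscle, so that transfected and untransfected fibres and all other cells of the muscle were measured together. The human transcript was not among the mouse genes counted, and its level was not measured here.

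A nerve impulse reaches the fibre as a depolarisation that voltage-gated sodium channels carry along the sarcolemma and into the transverse tubules. Chloride channels and inwardly rectifying potassium channels hold the resting potential and damp repetitive firing, and other potassium channels repolarise the membrane or link it to the energy state of the fibre. When a muscle loses its nerve, it is known to express the small-conductance calcium-activated potassium channel Kcnn3, scarce in innervated adult fibres, and to lose chloride conductance.

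Sequence upstream of an annotated start was read for 4 of the 6 genes from the RefSeq promoter table of the GRCm38.p6 build, and 3 windows are printed. *Clcn1* and *Kcna7* were chosen because they had the highest correlation of levels across the muscles of any pair of the 6 genes. *Kcnn3* was chosen because it differed between the groups in the opposite direction. The table has no entry for *Kcnj11*. The start it gives for *Scn4a* was not used because the 30 bases that follow it were not found in a GENCODE transcript of the gene. Each window holds the 250 bases before the start, 5′ to 3′ on the strand of the gene, which is the plus strand for all 3. The *Clcn1* window lies inside the annotated span of the gene, which begins at base 42284851, so it precedes an internal start. Capitals mark E-boxes, the sites known to be read by myogenic basic helix-loop-helix factors, and the overlapping MEF2 motif and TATA box.
*Clcn1*, chr6:42286435-42286684: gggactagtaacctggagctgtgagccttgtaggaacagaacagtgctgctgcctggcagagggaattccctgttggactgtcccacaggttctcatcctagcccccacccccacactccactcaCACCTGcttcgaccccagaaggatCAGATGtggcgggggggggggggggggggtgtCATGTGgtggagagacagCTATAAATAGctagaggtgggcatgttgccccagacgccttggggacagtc
*Kcna7*, chr7:45405710-45405959: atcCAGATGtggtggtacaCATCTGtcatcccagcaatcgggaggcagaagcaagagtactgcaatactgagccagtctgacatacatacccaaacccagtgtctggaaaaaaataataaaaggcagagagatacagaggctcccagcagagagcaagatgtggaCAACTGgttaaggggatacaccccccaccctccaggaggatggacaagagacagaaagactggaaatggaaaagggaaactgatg
*Kcnn3*, chr3:89519914-89520163: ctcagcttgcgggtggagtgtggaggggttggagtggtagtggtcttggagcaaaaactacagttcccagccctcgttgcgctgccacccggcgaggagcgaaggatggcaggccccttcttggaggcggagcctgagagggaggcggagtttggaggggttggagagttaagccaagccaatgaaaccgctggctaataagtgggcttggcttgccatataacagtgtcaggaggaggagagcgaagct

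The E-box was searched as CANNTG, the NFAT core as GGAAA and the TATA box as TATAAA, each on both strands, along with the MEF2 motif. The *Clcn1* window held 3 E-boxes, beginning 125, 101 and 69 bases before the start, and 1 MEF2 motif beginning 51 bases before it, which overlapped a TATA box beginning 50 bases before it. The *Kcna7* window also held 3 E-boxes, with 4 copies of the NFAT core and no MEF2 motif or TATA box. The *Kcnn3* window held none of the 4 motifs. The *Kcnj2* window, on chromosome 11 and not printed, held 2 E-boxes, 206 and 84 bases before the start. Of all 32851 windows of this length in the table, 66.2% held an E-box, 55.6% the NFAT core, 12.4% the TATA box and 2.92% the MEF2 motif, so the MEF2 motif of *Clcn1* was the least common of these matches. A match is a run of letters and was not tested as a binding site.

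Total counts per muscle ranged from 45018389 to 59309210 in Control and from 44848322 to 60527385 in FRAIL1. The FRAIL1 muscle numbered 5 stood apart from the others on the first principal component of all genes, at 59.5 where the next highest muscle was at 25.8, and results that rest on it are given with and without it. Levels are CPM, the counts of a gene relative to the total of its library with TMM scaling, a correction for differences in the make-up of the libraries. Genes of the 2 groups were compared with the quasi-likelihood test of edgeR, with Benjamini-Hochberg adjustment over all 15502 genes and a threshold of 0.05. Muscles with the same number were taken as the legs of 1 mouse, and the value with that number as a block is given where it changed the call of a named gene.

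Of the 6 channel genes, *Kcnn3* rose and *Scn4a* fell, and the other 4 had lower point estimates that did not pass the test. Of all genes tested, 6.28% passed, 4.43% as higher and 1.85% as lower in FRAIL1 muscles. Each of the 5 lower genes was lower in the FRAIL1 muscle of all 6 numbers, and *Kcnn3* was higher in the FRAIL1 muscle of all 6 numbers. Over all genes, 11.7% were lower and 11.5% were higher in all 6. The groups did not overlap for 1 of the 6 genes, *Kcnn3*, as for 4.88% of all genes, and 5 of the 6, all but *Kcnj11*, had an unadjusted p under 0.05, as 27.7% of all genes had. With the muscle number as a block, 3 of the 6 genes fell, *Scn4a*, *Clcn1* and *Kcnj2*, and *Kcnn3* rose, where 14.1% of all genes passed, 6.62% as lower and 7.48% as higher. The median log2 fold change of the 6 genes was -0.28, beside 0.01 over all genes tested.

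**Figure D1:**
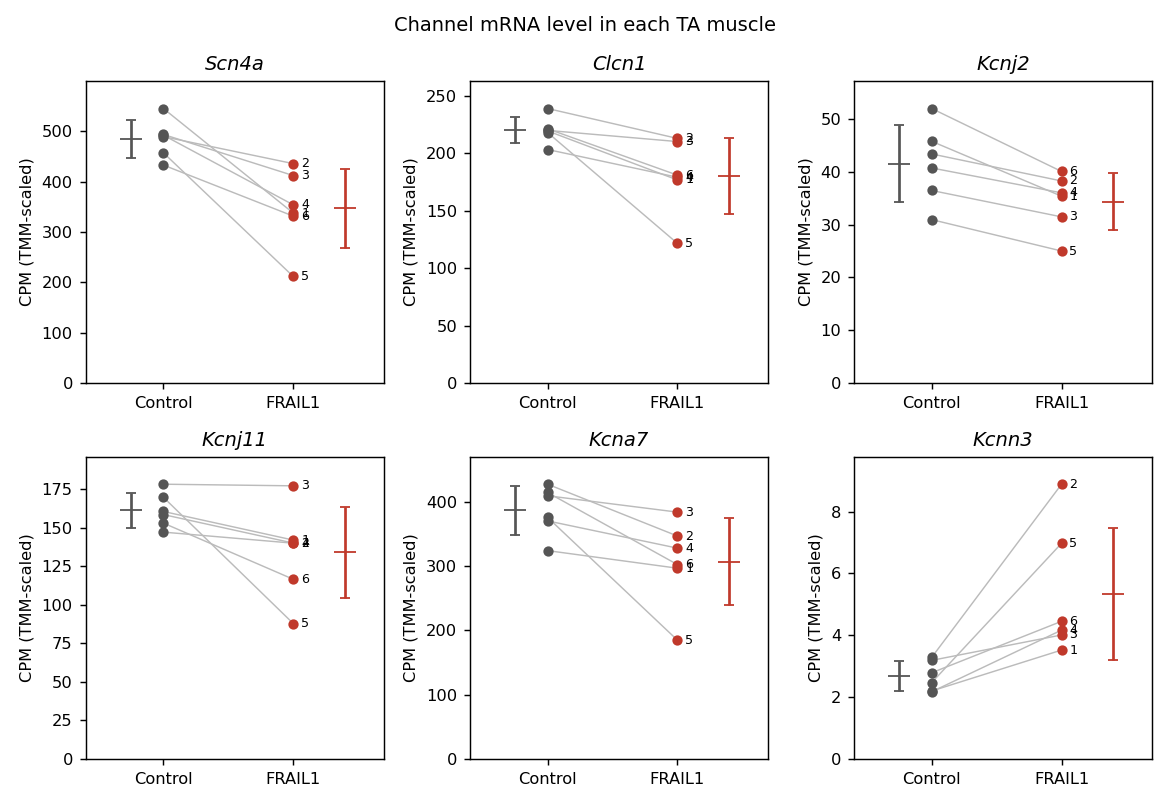
CPM (y axes, from 0) of the 6 channel genes in 6 Control (grey) and 6 FRAIL1 (red) muscles, with lines joining muscles of the same number and the mean ± SD beside each group. The 6 FRAIL1 muscles lie above the 6 Control muscles for *Kcnn3*, and the FRAIL1 muscle numbered 5 is the lowest point for the other 5 genes.

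*Scn4a* (Gene ID 110880, chr11:106317545-106365559, minus strand, GRCm38) encodes Nav1.4, the sodium channel that carries the action potential of adult muscle. Control muscles had 433 CPM at the lowest, 491 at the median and 545 at the highest. FRAIL1 muscles had 212, 346 and 436 CPM. In 5 of the 6 FRAIL1 muscles *Scn4a* was below the lowest Control muscle, and the muscle numbered 2 overlapped it narrowly. The mean fell from 485 ± 38.1 to 347 ± 78.4 CPM (SD, n = 6 each), a log2 fold change of -0.48 (SE 0.133, adjusted p = 0.0470), and the fitted level fell by 28.4%. The difference by number was smallest for number 2, -0.17, and largest for number 5, -1.11, on the log2 scale. Without the FRAIL1 muscle numbered 5 the log2 fold change was -0.38 (adjusted p = 0.0131), and the FRAIL1 mean was 374 ± 46.8 CPM (n = 5). The call lay close to the threshold. It was lost when any Control muscle or the FRAIL1 muscle numbered 1, 4 or 6 was left out, with adjusted p between 0.0611 and 0.0975.

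Of the partners of Nav1.4, *Scn4b*, which shapes the resurgent sodium current in neurons, had 533 ± 37.9 and 362 ± 122 CPM. All 6 FRAIL1 muscles were below all 6 Control muscles for *Scn4b*, a pattern that 1.77% of all genes had, yet its log2 fold change of -0.56 (SE 0.227) did not pass the test (adjusted p = 0.136), with 135 CPM in the FRAIL1 muscle numbered 5 and 316 CPM in the next lowest. *Scn4b* passed without the FRAIL1 muscle numbered 5, at -0.39 (adjusted p = 0.0140), as it did without both muscles numbered 5 (-0.40, adjusted p = 0.0208) and with DESeq2 (-0.56, adjusted p = 0.0470). Of the 12 sodium channel subunits listed, 11 were tested, and *Scn4a* alone passed, whereas 2, *Scn4a* and *Scn4b*, were lower with DESeq2 and without the FRAIL1 muscle numbered 5. The median log2 fold change of the 10 without *Scn4a* was -0.06.

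*Clcn1* (Gene ID 12723, chr6:42284851-42315764, plus strand) encodes ClC-1, which carries most of the resting membrane conductance of muscle and is mutated in myotonia congenita. Control muscles had 203 CPM at the lowest, 219.6 at the median and 239 at the highest, and FRAIL1 muscles 122, 180.0 and 213 CPM. In 4 of the FRAIL1 muscles the level was below every Control muscle, and the muscles numbered 2 and 3 overlapped the Control range. The means were 220.1 ± 11.3 and 180.2 ± 32.9 CPM, a log2 fold change of -0.29 (SE 0.106, adjusted p = 0.0997). With the muscle number as a block *Clcn1* fell by 0.31 on the log2 scale (adjusted p = 0.0446). Without the FRAIL1 muscle numbered 5 the log2 fold change was -0.20. Of the exon length, 8.2% overlaps *Fam131b* on the opposite strand, and the counting was not stated to use strand, so reads of that stretch could belong to either gene.

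None of the 15 chloride channel and transporter genes passed the edgeR test. At an unadjusted p under 0.05, 5 were lower and 0 higher, where 27.7% of all genes passed in either direction. With DESeq2 1, *Ano1*, was lower, where 2232 of 15502 genes passed in either direction. The median log2 fold change of the 15 was -0.15, with 12 of 15 lower by point estimate beside 48.4% of all genes. *Clcn2*, the widely expressed relative of *Clcn1*, had 3.10 ± 0.673 and 3.80 ± 0.536 CPM (log2 fold change 0.29, adjusted p = 0.234). With the block 4 of the 15 fell, *Clcn1*, *Clcn3*, *Ano1* and *Ano5*, the last of which is a membrane protein mutated in a limb-girdle muscular dystrophy.

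*Kcnj2* (Gene ID 16518, chr11:111066164-111076825, plus strand) encodes Kir2.1, an inward rectifier that sets the resting potential and is mutated in Andersen-Tawil syndrome. Control muscles had 30.9, 42.0 and 51.9 CPM at the lowest, median and highest, and FRAIL1 muscles 24.998, 35.7 and 40.0 CPM. The groups overlapped, with only the FRAIL1 muscle numbered 5 below every Control muscle. The means were 41.5 ± 7.33 and 34.4 ± 5.42 CPM, a log2 fold change of -0.27 (SE 0.127, adjusted p = 0.179). The differences by number were the most even of the 6 genes, from -0.38 to -0.18 with an SD of 0.0923. The muscle numbered 6 was the highest and that numbered 5 the lowest in both groups. With the block *Kcnj2* fell by 0.27 on the log2 scale (adjusted p = 0.0116), and without both muscles numbered 5 the blocked value was also -0.27 (adjusted p = 0.00385). *Kcnj12*, which encodes the related Kir2.2, had 49.6 ± 4.76 and 38.2 ± 8.90 CPM (log2 fold change -0.38, adjusted p = 0.116).

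*Kcnj11* (Gene ID 16514, chr7:46097123-46100952, minus strand) encodes Kir6.2, the pore of the potassium channel that ATP closes and that opens when a fibre runs short of energy. Control muscles had 147, 159.7 and 178 CPM, and FRAIL1 muscles 87.9, 140.1 and 177 CPM. In 5 FRAIL1 muscles the level was below every Control muscle, whereas the muscle numbered 3 stood near the top of the Control range and differed from its Control muscle by -0.0086 on the log2 scale. The means were 161 ± 11.3 and 134 ± 29.8 CPM, with a log2 fold change of -0.27 (SE 0.125) that did not pass the test (adjusted p = 0.181). Without the FRAIL1 muscle numbered 5 the log2 fold change was -0.17 (adjusted p = 0.244). Without the muscle numbered 3 it was -0.36 and passed (adjusted p = 0.0419), the only one of the 12 muscles whose omission gave a call.

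Of the partners of Kir6.2, *Abcc9*, which encodes the sulfonylurea receptor SUR2, had 182 ± 19.5 and 164 ± 22.8 CPM (log2 fold change -0.15, adjusted p = 0.319). *Abcc8*, which encodes SUR1, had 2.90 ± 0.692 and 3.13 ± 1.32 CPM (log2 fold change 0.11, adjusted p = 0.800). *Kcnj8*, which encodes the Kir6.1 pore of vascular channels, had 27.3 ± 3.96 and 19.8 ± 3.88 CPM, with a log2 fold change of -0.47 (adjusted p = 0.0520, 0.0273 with the block, and 0.0480 and 0.0296 without the FRAIL1 muscle numbered 2 or 3). In the edgeR test as set out above, with all 12 muscles and no block, none of the 9 inward rectifier and KATP genes tested, of 11 listed, passed. *Kcnj8* passed in 9 of 22 alternatives to it. At an unadjusted p under 0.05, 3 of the 9 were lower and 1 was higher, where 27.7% of all genes passed in either direction. With DESeq2 1, *Kcnj8*, was lower, where 2232 of 15502 genes passed in either direction. The median log2 fold change of the 9 was -0.15.

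*Kcna7* (Gene ID 16495, chr7:45405960-45411382, plus strand) encodes Kv1.7, a voltage-gated potassium channel of muscle. Control muscles had 324, 393 and 428 CPM at the lowest, median and highest, and FRAIL1 muscles 185, 315 and 384 CPM. In 3 FRAIL1 muscles the level was below every Control muscle, and the other 3 lay within the Control range. The means were 387 ± 38.1 and 307 ± 67.9 CPM, a log2 fold change of -0.33 (SE 0.136, adjusted p = 0.132). The differences by number ran from -0.093 for number 3 to -1.02 for number 5, and without the FRAIL1 muscle numbered 5 the log2 fold change was -0.22.

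Among 19 voltage-gated potassium channel subunits tested, of 26 listed, 2 rose and none fell, and the median log2 fold change was -0.04, or -0.13 without the FRAIL1 muscle numbered 5. *Kcnh2*, which encodes the ERG1 channel known for its part in cardiac repolarisation and in muscle atrophy, rose from 3.47 ± 0.271 to 5.85 ± 1.34 CPM (log2 fold change 0.75, SE 0.142, adjusted p = 0.0124). All 6 FRAIL1 muscles lay above all 6 Control muscles for *Kcnh2*, a pattern of 3.12% of all genes, and the call held in all 22 alternatives run for it. *Kcne5*, an accessory subunit that damps potassium channels, had 1.30 ± 0.272 and 3.52 ± 2.75 CPM (log2 fold change 1.44, adjusted p = 0.0496). Its highest FRAIL1 muscle, the one numbered 5, had 8.90 CPM where the next had 3.54, and without it the log2 fold change was 0.90 (adjusted p = 0.0324). The *Kcne5* call was lost in 11 of 22 alternatives, and held on leaving out 1 muscle only without the FRAIL1 muscle numbered 2, 3 or 5. *Kcna5*, a relative of *Kcna7*, had 12.2 ± 2.7003 and 9.09 ± 3.55 CPM (log2 fold change -0.42, adjusted p = 0.218, and 0.0134 with the block), and without the FRAIL1 muscle numbered 3, its highest, the log2 fold change was -0.66 (adjusted p = 0.0116). *Kcna1*, *Kcnab1* and *Kcnab2*, a relative and the cytoplasmic beta subunits, had log2 fold changes of -0.27, -0.44 and 0.09 with adjusted p of 0.304, 0.231 and 0.786.

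*Kcnn3* (Gene ID 140493, chr3:89520164-89672494, plus strand) encodes SK3, the apamin-sensitive channel behind the long after-hyperpolarisation of denervated fibres. Control muscles had 2.17, 2.63 and 3.28 CPM at the lowest, median and highest, and FRAIL1 muscles 3.52, 4.31 and 8.89 CPM. The lowest FRAIL1 muscle lay above the highest Control muscle, and the muscles numbered 2 and 5 stood well above the other 4. The mean rose from 2.68 ± 0.483 to 5.33 ± 2.12 CPM, a 1.99-fold increase in the fitted level (log2 fold change 0.99, SE 0.221, adjusted p = 0.0217). The differences by number ran from 0.33 for number 3 to 1.48 for number 5, with a mean of 0.92 ± 0.458. Without the FRAIL1 muscle numbered 5 the mean of the other 5 was 5.01 ± 2.19 CPM, with a log2 fold change of 0.90 (adjusted p = 0.0305). Leaving out the FRAIL1 muscle numbered 2, the highest, lowered it further, to 0.78 (adjusted p = 0.0220). The call was lost when the Control muscle numbered 1 was left out (log2 fold change 0.94, adjusted p = 0.0543) and when both muscles numbered 5 were left out (0.88, adjusted p = 0.0592).

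No other SK gene passed the test with all 12 muscles. *Kcnn1*, which encodes SK1, had 23.2 ± 1.81 CPM in Control and 17.9 ± 4.10 CPM in FRAIL1 muscles, and all 6 FRAIL1 muscles were lower than all 6 Control muscles (log2 fold change -0.37, adjusted p = 0.119). The log2 fold change of *Kcnn1* without the FRAIL1 muscle numbered 5 was nearer to 0, -0.24, and passed (adjusted p = 0.0309), and without both muscles numbered 5 it was -0.23 and did not (adjusted p = 0.0524). *Kcnn2*, which encodes SK2, had 3.32 ± 0.612 and 2.65 ± 0.958 CPM (log2 fold change -0.32, adjusted p = 0.410, and -0.15 without the FRAIL1 muscle numbered 5). *Kcnn4*, the intermediate-conductance channel of blood and connective tissue cells, had 3.95 ± 0.913 and 6.09 ± 3.22 CPM (log2 fold change 0.62, adjusted p = 0.192, and 0.37 without the FRAIL1 muscle numbered 1). The large-conductance channel gene *Kcnma1* fell from 14.8 ± 1.404 to 12.1 ± 1.19 CPM (log2 fold change -0.29, adjusted p = 0.04999, just inside the threshold). On leaving out 1 muscle, the *Kcnma1* call held only without the Control muscle numbered 5 or the FRAIL1 muscle numbered 2 or 3. Of the 6 calcium-activated channels tested, of 7 listed, 1 rose and 1 fell, and their median log2 fold change was -0.23, or -0.11 without the FRAIL1 muscle numbered 5.

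**Figure D2:**
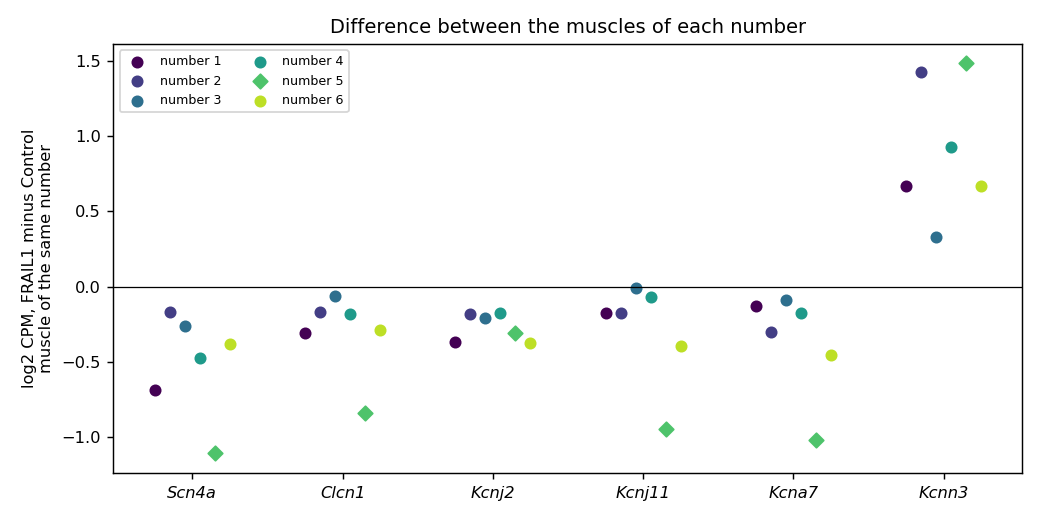
Log2 CPM in the FRAIL1 muscle minus that in the Control muscle of the same number (y axis) for the 6 channel genes, 1 point per number, with number 5 as a diamond. All 6 points lie below 0 for *Scn4a*, *Clcn1*, *Kcnj2*, *Kcnj11* and *Kcna7* and above 0 for *Kcnn3*, and number 5 is the lowest for 4 of the 5 lower genes.

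Per kilobase of exon in Control muscles, the order of the levels was *Kcna7* at 177 ± 17.5 CPM per kilobase, *Scn4a* at 68.9 ± 5.41, *Kcnj11* at 43.9 ± 3.07, *Clcn1* at 40.5 ± 2.09, *Kcnj2* at 7.63 ± 1.346 and *Kcnn3* at 0.257 ± 0.0463 (SD, n = 6). *Kcnj11* and *Clcn1* were the neighbours whose levels lay within about 1 SD of each other. The order was the same in FRAIL1 muscles, where *Kcnj11* and *Clcn1* were again within 1 SD of each other, at 141 ± 31.1, 49.3 ± 11.1, 36.5 ± 8.11, 33.2 ± 6.06, 6.31 ± 0.996 and 0.510 ± 0.203 CPM per kilobase. *Kcnn3* was thus the rarest of the 6 in both groups, also after its rise. The spread between muscles was wider in FRAIL1 for 5 of the 6 genes, with the coefficient of variation of *Scn4a* at 7.85% in Control and 22.6% in FRAIL1, and that of *Kcnj2* at 17.6% and 15.8%. Part of this rested on the FRAIL1 muscle numbered 5. Without it the FRAIL1 SD of *Scn4a* was 46.8 CPM, not 78.4, beside 38.1 in Control. That of *Kcna7* was 35.6 CPM, not 67.9, beside 38.1 in Control. The FRAIL1 SD of *Kcnn3* stayed near its value, at 2.19 CPM without that muscle and 2.12 with it.

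Levels of the lower genes ran together over the 12 muscles, of which the FRAIL1 muscle numbered 5 was the lowest for each of them. Values of r without that muscle or within 1 group are not given, so how far they rest on it is not known. Among Control muscles, number 1 had the highest *Scn4a*, 545 CPM, and the lowest *Kcna7*, 324 CPM. Number 2 had the highest *Clcn1*, 239 CPM, and the highest *Kcna7*, 428 CPM. Pearson's r of log2 CPM over the 12 muscles was 0.95 for *Scn4a* with *Clcn1* and 0.95 for *Clcn1* with *Kcna7*, and 0.92 for each pair after the group means were removed. *Kcnj2* was looser, with r between 0.40 and 0.67 with the other lower genes. *Kcnn3* had r between -0.62 and -0.45 with the 5 lower genes, and between -0.32 and -0.06 once the group means were removed. These are descriptions over 12 muscles that share library composition and, in pairs, a mouse. By the same measure the genes closest to *Scn4a* were *Eif4g1* (r = 0.996), a translation initiation factor, *Ryr1* (0.99), the calcium release channel of the sarcoplasmic reticulum, and *Prkab2* (0.99), a subunit of the AMP-activated kinase. The closest to *Clcn1* were *Sqor* (0.996), *Asb2* (0.99) and *Rab11fip3* (0.99), to *Kcna7* *Mfn2* (0.98), *Sord* (0.98) and *Efcab6* (0.98), and to *Kcnj2* *Atg14* (0.90), *Pdp2* (0.90) and *Fam180a* (0.89). Among the 3 closest to *Kcnj11* were *Stac3* (0.97), an adaptor of excitation-contraction coupling, and *Plpp7* (0.97). The closest to *Kcnn3* were *Sh2d4a* (0.94), *Plekhh1* (0.93) and *Dll1* (0.93), a Notch ligand.

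Genes that move ions with these channels or hold them in place were listed too. Of 10 sodium-potassium pump genes, 2 beta subunits rose, *Atp1b2* from 297 ± 24.3 to 372 ± 49.5 CPM (log2 fold change 0.32, adjusted p = 0.0429) and *Atp1b3* from 43.5 ± 2.97 to 54.0 ± 7.22 CPM (0.31, adjusted p = 0.0369). On leaving out 1 muscle, both of these calls held only without the FRAIL1 muscle numbered 2, 3 or 5. Of 6 tandem-pore potassium channels tested, of 7 listed, *Kcnk13* rose from 0.810 ± 0.176 to 1.90 ± 0.778 CPM (log2 fold change 1.23, adjusted p = 0.0220, and 0.0535 without the FRAIL1 muscle numbered 1). Of 18 channel anchors and modulators, *Fgf11*, which encodes a cytoplasmic partner of sodium channels, rose from 4.04 ± 0.837 to 7.06 ± 1.33 CPM (log2 fold change 0.81, adjusted p = 0.0104). *Ank3*, the ankyrin that holds Nav1.4 at the junctional folds, had 89.9 ± 6.56 and 86.7 ± 7.01 CPM (log2 fold change -0.05, adjusted p = 0.648). *Nedd4l*, a ubiquitin ligase of sodium channels, had 49.0 ± 9.65 and 40.2 ± 4.83 CPM (log2 fold change -0.29, adjusted p = 0.162, 0.0344 with the block and 0.0372 without the Control muscle numbered 6).

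**Figure D3:**
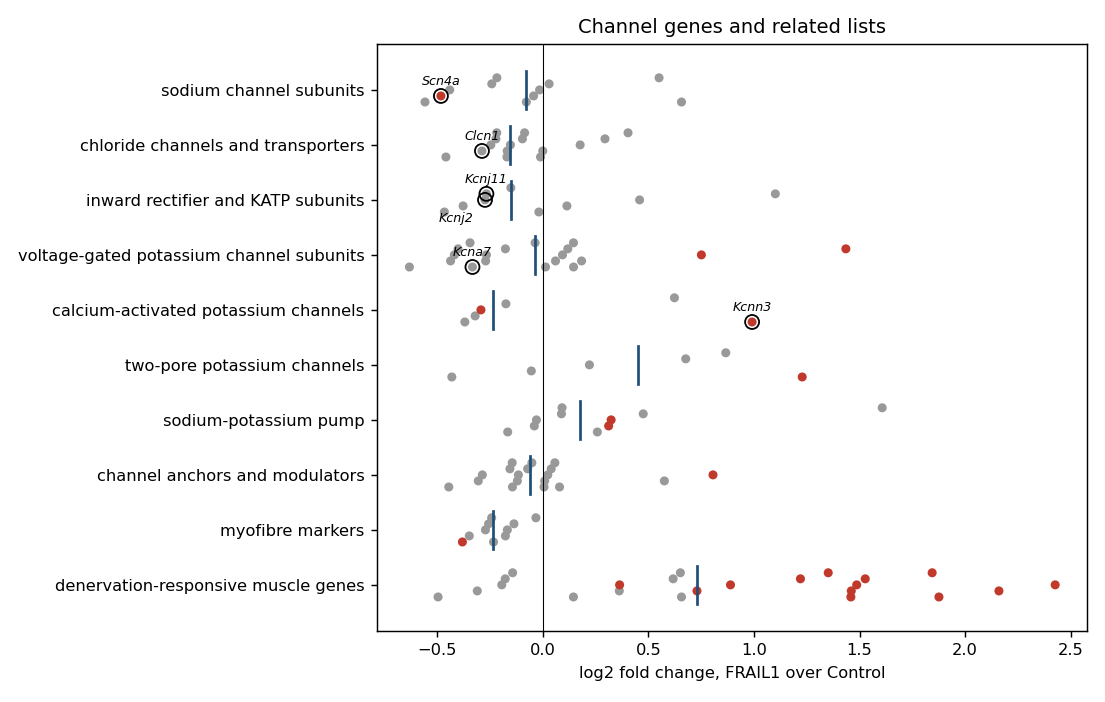
Log2 fold change, FRAIL1 over Control (x axis), of every tested gene in 10 lists (rows), with red points for adjusted p under 0.05, blue bars for list medians and circles for the 6 channel genes. The medians of the channel, pump and anchor lists run from -0.23 to 0.45, that of the myofibre markers is -0.24 and that of the denervation list is 0.73.

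Genes known to respond to denervation in muscle were measured beside the channels, most of them known to rise and some, such as *Hdac9* and *Dach2*, known to fall. Of 23 tested, 13 rose and none fell, where 4.43% of all genes rose and 1.85% fell. The median log2 fold change of the 23 was 0.73, and 12 rose without both muscles numbered 5. The 13 were the acetylcholine receptor subunits *Chrna1*, *Chrnb1*, *Chrnd*, *Chrne* and *Chrng*, the adhesion molecule *Ncam1*, the transcription factors *Myog* and *Runx1*, the developmental myosins *Myh3* and *Myh8*, and *Ankrd1*, *Sln* and *Uchl1*. The call of *Runx1* was lost with the block (adjusted p = 0.0678) and without the Control muscle numbered 2, 5 or 6 or the FRAIL1 muscle numbered 5 (0.0503 to 0.0612), that of *Chrne* without the Control muscle numbered 2 or 3 or the FRAIL1 muscle numbered 1 (0.0508 to 0.0567), and that of *Myh8* without the Control muscle numbered 2 or 3 (0.0502 and 0.0519). *Myod1* and *Nnmt* passed as higher with the block (adjusted p = 0.0107 and 0.0464) and not without it (0.0725 and 0.0761). With the block 14 of the 23 rose, where 7.48% of all genes did. *Chrng*, the fetal receptor subunit, rose from 3.51 ± 1.14 to 12.9 ± 3.56 CPM (log2 fold change 1.88, adjusted p = 0.00160), and *Chrna1* from 29.5 ± 3.56 to 81.0 ± 19.2 CPM (1.46, adjusted p = 0.000339). Of the 23, 5 had lower point estimates and none of these passed. They were the ubiquitin ligases *Trim63* (-0.31, adjusted p = 0.274) and *Fbxo32* (-0.50, adjusted p = 0.313) and the transcriptional regulators *Hdac4* (-0.14, adjusted p = 0.394), *Hdac9* (-0.18, adjusted p = 0.232) and *Dach2* (-0.19, adjusted p = 0.743). The rise of *Kcnn3* was smaller on the log2 scale than those of *Chrng* and *Chrna1*, a difference that was not tested.

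Markers of muscle fibres and of other cells differed between the groups as well, and in whole muscle fewer cells of a type cannot be told apart from less RNA per cell. All 10 myofibre markers had lower point estimates, from -0.38 to -0.03 with a median log2 fold change of -0.24, which was -0.15 without the FRAIL1 muscle numbered 5, and *Ckm*, muscle creatine kinase, fell (-0.38, adjusted p = 0.0482), a call that held on leaving out 1 muscle only without the FRAIL1 muscle numbered 2, 3 or 5. With DESeq2 5 of the 10 fell, as did 951 of all 15502 genes. The summed level of the 10 markers was 143120 to 164259 CPM in Control and 106662 to 154929 CPM in FRAIL1 muscles, lowest in the FRAIL1 muscle numbered 5. *Myh4*, the fast myosin of type 2B fibres, had a log2 fold change of -0.43 (adjusted p = 0.0548, and 0.0328 with the block), with all 6 FRAIL1 muscles below all 6 Control muscles. The 5 lower channel genes had log2 fold changes of -0.48 to -0.27, and only that of *Scn4a* lay outside the range of the 10 myofibre markers. The 5 channel genes were at -0.38 to -0.17 without the FRAIL1 muscle numbered 5.

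Scaled to the 10 myofibre markers in place of TMM, an alternative added after the data were seen, *Scn4a* had a log2 fold change of -0.27 (adjusted p = 0.0400) and *Kcnn3* of 1.26 (adjusted p = 0.0107). On that scale *Clcn1* was at -0.07, *Kcnj2* at -0.05, *Kcnj11* at -0.05 and *Kcna7* at -0.12, none of which passed. The median of all genes moved from 0.01 to 0.26 with that scaling.

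Summed fibroblast markers were 957 to 1809 CPM in Control and 1923 to 4942 CPM in FRAIL1 muscles, highest in the muscle numbered 5. Most of that sum came from 2 collagen genes, *Col1a1* (means 449 and 927 CPM) and *Col3a1* (731 and 1293 CPM). The log2 fold changes of the 8 fibroblast markers ran from -0.14 to 1.04. Summed macrophage markers were 217 to 336 and 272 to 709 CPM. No gene of either list passed the test (0 of 8 and 0 of 9), with medians of 0.38 and 0.59, although 5 and 6 were higher at an unadjusted p under 0.05, 4 and 5 rose with DESeq2, and 1 and 5 rose with the block. Over all 15502 genes, in either direction, 27.7% had an unadjusted p under 0.05, 2232 passed with DESeq2 and 14.1% passed with the block. Summed Schwann cell and nerve markers were 91.7 to 161 and 77.9 to 119 CPM, and none of 9 passed, with 1 higher and 2 lower both at an unadjusted p under 0.05 and with DESeq2. Of 8 endothelial markers, *Tek* and *Vwf* fell, the latter on leaving out 1 muscle only without the FRAIL1 muscle numbered 2 or 3, with summed levels of 445 to 520 and 362 to 464 CPM. None of 8 smooth muscle, 7 lymphocyte or 5 satellite cell markers passed, with medians of -0.08, -0.19 and 0.36. At an unadjusted p under 0.05, 3, 0 and 3 of these did, and with DESeq2 0, 0 and 2. No marker was at 0 in all muscles, and the part of these cells in the channel values was not tested.

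**Figure D4:**
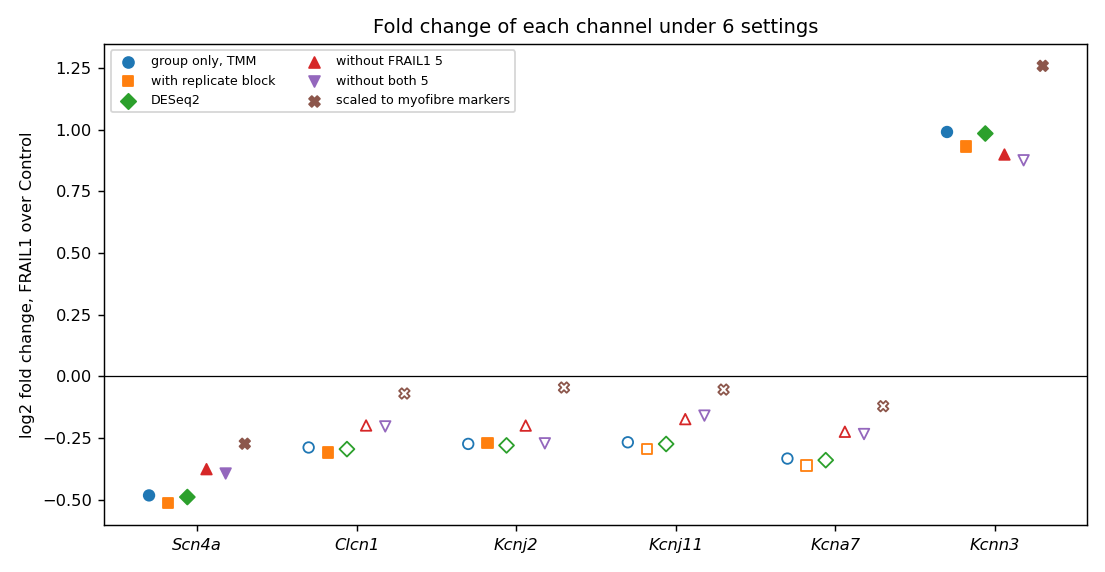
Log2 fold change, FRAIL1 over Control (y axis), of the 6 channel genes under 6 settings (colours and shapes), with filled symbols for adjusted p under 0.05. *Kcnn3* stays above 0 and the other 5 stay below 0 in all 6, and the 5 are nearest to 0 when counts are scaled to the myofibre markers.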

How the data were processed

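The RNA-seq data were 12 libraries of poly(A) RNA from whole TA muscles. Per the labels and methods, the authors trimmed paired-end reads with Trimmomatic, aligned them to mm10 with STAR 2.7.8a and counted them per gene with featureCounts 2.0.1, and the deposited values are raw counts. A strand setting was not given in the sources used here. Of 27179 Gene IDs, 25275 were matched to a symbol, and the others held 0.280% of counts. The depth, 44848322 to 60527385 counts per muscle, limits mainly the rare genes.

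Counts were filtered with filterByExpr, scaled with TMM and tested with the robust quasi-likelihood method of edgeR 4.0.16 in R 4.3.3, with SE taken as the log2 fold change over the root of F. Log2 CPM used a prior count of 2. DESeq2 1.42.0 was an alternative. A self-test on simulated counts was passed. It used the same dispersion for every gene, no pairing of muscles and planted changes larger than those of the lower channel genes. It therefore cannot tell how well changes of their size are called in these muscles. Positions came from RefSeq GRCm38.p6, and exon lengths and overlaps from GENCODE M21. With blastn 2.17.0, no other gene matched a transcript of the 6 genes at 98% identity over 100 bases except *Fam131b*, which overlaps *Clcn1*. The study gives each mouse 1 muscle of each group, and same-numbered muscles were taken as 1 mouse, although the labels do not state that the number is the mouse. Deviations from the group means correlated at 0.254, 0.162, 0.282, 0.263, 0.0547 and 0.185 for numbers 1 to 6, with a mean of 0.200 beside -0.0400 between different numbers.

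The 6 genes and the lists (18 lists, 184 of 197 genes tested) were chosen with earlier results of these data known, and lists are described by counts and medians without a test. Named were the 6 genes, list genes that passed, a fixed set of channel partners, and the 3 genes most correlated with each of the 6, and results of some of these genes are not reported here. *Clcn3*, *Ano1*, *Ano5*, *Myh4*, *Trim63*, *Fbxo32*, *Hdac4*, *Hdac9*, *Dach2*, *Myod1*, *Nnmt*, *Col1a1* and *Col3a1* were named after their values were seen. Alternatives were other scalings and filters, the block, DESeq2 and leaving out muscles.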

Additional observations from a re-analysis of the deposited data

Results flagged for a closer look

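Of 56 groups of 6 muscles examined, those of the 6 channel genes and of the partner and list genes named, 7 had a highest or lowest muscle that stood apart by Dixon's criterion, which chance flags in about 1 in 20 groups. None of the 7 was a group of *Scn4a*, *Clcn1*, *Kcnj2*, *Kcnj11*, *Kcna7* or *Kcnn3*. The FRAIL1 muscle numbered 5 accounted for 4 of them. It was the lowest for *Kcnn1*, at 9.70 CPM where the next had 18.3, and for *Kcnma1*, at 9.83 CPM where the next had 11.9. It was the highest for *Kcne5*, at 8.90 CPM where the next had 3.54, and for *Fgf11*, at 9.57 CPM where the next had 7.25. *Kcna5* was highest in the Control muscle numbered 3, at 17.6 CPM where the next had 12.1, and in the FRAIL1 muscle of the same number, at 16.1 CPM where the next had 8.49. *Ank3* was lowest in the Control muscle numbered 5, at 77.3 CPM where the next had 88.7.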

How the results depend on the processing

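The direction of each of the 6 channel genes was the same in all 23 alternatives. *Scn4a* passed in 13, and failed with no filter on low counts (log2 fold change -0.48, adjusted p = 0.0560) and on leaving out 9 of the 12 muscles in turn, with a range over the 12 of -0.56 to -0.38. *Kcnn3* passed in 21, with 0.78 to 1.09 on leaving out 1 muscle, and failed without both muscles numbered 5 (0.88). With the muscle number as a replicate block *Clcn1* (-0.31) and *Kcnj2* (-0.27) passed, and the block changed no other call among the 6 genes. With DESeq2 and the block, *Clcn1* (-0.32), *Kcnj2* (-0.28), *Kcnj11* (-0.30) and *Kcna7* (-0.37) passed. Without both muscles numbered 5 and with the block, *Clcn1* (-0.21), *Kcnj2* (-0.27), *Kcnj11* (-0.17) and *Kcna7* (-0.23) passed. On leaving out 1 muscle *Kcnj11* ranged from -0.36 to -0.17. *Abcc8* changed sign without the FRAIL1 muscle numbered 3, with a range of -0.093 to 0.24 on leaving out 1 muscle. Of all genes, 974 passed, and 2186 with the block, 2232 with DESeq2, 2898 with DESeq2 and the block, 2305 with the block and without both muscles numbered 5, and 364 to 2110 on leaving out 1 muscle. Scaled to the myofibre markers 3809 passed, 3731 higher and 78 lower, where TMM gave 687 and 287. The cause of these differences was not tested. Depth limits the rare genes most, among them *Kcnn3*.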
